A study of Mus musculus with 24 samples.

Results

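Loss of JNK1 was examined in mouse liver that already lacked JNK2, on a chow diet. The comparison sets 3 liver RNA-seq libraries of Jnk1flox/floxJnk2flox/flox mice (called Jnk1Jnk2 here) against 3 of Jnk2flox/flox mice (called Jnk2), picked by the genotype and diet in the sample labels, so that it uses 6 of the 24 libraries of the series. All mice were C57BL/6J and all, including the controls, carried AlbCre+, a Cre recombinase under the promoter of the albumin gene. The labels call the conditional genotypes knock downs. Chow or a high fat diet was given for 16 weeks. Further groups of 3 libraries are used beside this comparison: chow Jnk1 (Jnk1flox/flox), chow control (AlbCre+ with no floxed allele named), high fat Jnk1Jnk2 and high fat Jnk2. The sources used here do not give age, sex or time of tissue collection. Nothing in the labels ties a replicate to its own mouse, so p-values reflect only how far these libraries scatter, and that scatter may be technical.

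JNK1 and JNK2 are stress-activated MAP kinases encoded by Mapk8 and Mapk9. They are switched on by the kinases MKK4 and MKK7 downstream of cytokines, saturated fatty acids and other stresses, and they phosphorylate c-Jun and related AP-1 factors. In hepatocytes they are known as modulators of insulin action and of the fatty acid oxidation genes driven by PPARα. The albumin promoter is active in hepatocytes, so Kupffer and endothelial cells of the liver are taken to keep both genes. In bulk tissue, fewer cells of a type and less RNA per cell cannot be told apart.

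The deposited values are FPKM (fragments scaled by transcript length and by the mapped total of the library), and they were compared as log2(FPKM + 1). Of 31026 named loci, 10561 averaged 1 FPKM or more over the 24 libraries and were tested. The 6 libraries had relative depths of 0.503 to 0.932 of the deepest library, and the absolute depth is unknown. Correlation over loci was 0.972 to 0.978 within the Jnk1Jnk2 group, 0.968 to 0.971 within the Jnk2 group and 0.964 to 0.972 between the groups, so the groups were nearly as alike as their own replicates. The Jnk2 libraries stood apart in RNA of other tissues, replicates 1 and 3 by muscle genes, replicate 1 by neutrophil genes and replicate 2 by pancreas genes. The 12 skeletal muscle markers tested summed to 2.90, 3.52 and 2.44 FPKM in Jnk1Jnk2, against 222, 4.88 and 29.3 FPKM in Jnk2. The 5 neutrophil markers summed to 39.9, 43.1 and 50.1 FPKM in Jnk1Jnk2, against 337, 73.0 and 38.005 FPKM in Jnk2. Ctrb1, a pancreatic digestive enzyme gene, was listed at 0.139, 0 and 0 FPKM in Jnk1Jnk2, against 0.103, 92.3 and 0 FPKM in Jnk2. Alb itself was listed at 0 in Jnk2 replicates 2 and 3, which is a failed estimate, and it is not read as a change. Among the other chow libraries, the muscle sums were 248, 59.8 and 4.47 FPKM in Jnk1, against 4.73, 5.31 and 4.203 FPKM in control, and the 12 adipocyte and pancreas markers summed to 1438, 141 and 93.3 FPKM in Jnk1, against 297, 126 and 1308 FPKM in control. The part of this RNA in the results was not tested beyond leaving out single libraries.

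Very few loci changed when JNK1 was lost in addition to JNK2. By limma with Benjamini-Hochberg adjustment, 5 of 10561 loci had an adjusted p under 0.05 (0.0473%), 1 higher in Jnk1Jnk2 (0.00947%) and 4 lower (0.0379%). The locus that rose is BC044868, a long noncoding transcript, and those that fell are Mapk8 itself, Fam25c, the pseudogene locus Gm3219 and 2510049J12Rik. Without Jnk2 replicate 1, 4 of the 5 passed, and without Jnk2 replicate 2 all 5 did. An unadjusted p under 0.05 was found at 453 of 10561 loci, a smaller share than the 0.05 that this threshold gives with no change at all. The 95% interval of the change lay within 1 log2 unit of 0 at 10128 loci (95.9%), its bounds lay a median of 0.27 from the estimate, and the fitted change exceeded 1 log2 unit at 93 loci. All 3 libraries of one group lay beyond all 3 of the other at 13.0% of loci, with Jnk1Jnk2 above at 3.82% and below at 9.21%. These shares, and those of the gene lists below, use FPKM without further scaling. The median change over all loci was -0.028, and -0.004 with size factors. The part of scaling in the split was not tested. A single comparison of 3 against 3 libraries cannot reach an exact two-sided p below 0.1, so calls depend on the spread pooled across all 24 libraries.

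Mapk8, on chromosome 14 (mm10 chr14:33377899-33447158, minus strand), fell to 1.99, 1.90 and 2.47 FPKM in Jnk1Jnk2, against 5.23, 5.18 and 5.20 FPKM in Jnk2. The groups did not overlap, and the mean was 2.12 ± 0.305 FPKM in Jnk1Jnk2 and 5.20 ± 0.0264 FPKM in Jnk2 (SD, n = 3 each). The log2 change was -0.997 ± 0.11 (SE, adjusted p = 5.91e-05, limma). RNA of cells without Cre and RNA from which floxed exons are missing cannot be told apart in the remaining signal. In livers with JNK2, Mapk8 was at 1.94, 1.88 and 1.98 FPKM in chow Jnk1 and at 5.02, 5.77 and 4.76 FPKM in chow control, a log2 change of -1.07 (adjusted p = 1.36e-05). The 2 changes differed by 0.08, with a 95% interval of -0.25 to 0.40 (adjusted p = 0.893).

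Mapk9, the JNK2 gene (chr11:49846751-49886421), carries the floxed allele in both groups. It stood at 6.61, 6.04 and 6.46 FPKM in Jnk1Jnk2, against 6.89, 6.59 and 5.60 FPKM in Jnk2. The groups overlapped, with a log2 change of 0.01 and a 95% interval of -0.17 to 0.18. Both sat below the libraries with an intact Mapk9, which held 10.1, 10.5 and 9.01 FPKM in chow Jnk1 and 9.83, 9.19 and 10.8 FPKM in chow control. Mapk10, the gene of JNK3, a kinase known mainly from brain, was too low in liver to be tested.

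Fam25c, a small protein-coding gene of undescribed function (chr14:34351882-34355393, minus strand), showed the largest fall of the 5. It stood at 2.80, 2.75 and 3.10 FPKM in Jnk1Jnk2, against 51.1, 34.6 and 40.7 FPKM in Jnk2. No library of either group came near the other group, and the log2 change was -3.46 ± 0.32 (adjusted p = 5.17e-06). Gm3219 lies beside it (chr14:34345055-34345658) and stood at 8.35, 7.19 and 6.91 FPKM in Jnk1Jnk2, against 28.7, 30.2 and 30.4 FPKM in Jnk2. Its log2 change was -1.86 ± 0.25 (adjusted p = 0.000838), again with no overlap. The Gm3219 locus is a processed pseudogene that overlaps the annotated end of Glud1, the glutamate dehydrogenase gene, so reads may be shared between them. Glud1 had 208, 251 and 232 FPKM in Jnk1Jnk2, against 236, 268 and 252 FPKM in Jnk2, and its change of -0.13 ± 0.13 did not pass.

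BC044868 was the only locus that rose (chr19:23051550-23075924). It stood at 7.76, 10.0 and 14.5 FPKM in Jnk1Jnk2, against 0.715, 0.773 and 0.910 FPKM in Jnk2. The lowest Jnk1Jnk2 library was far above the highest Jnk2 library, and the log2 change was 2.67 ± 0.21 (adjusted p = 5.87e-07). The locus overlaps a long noncoding RNA, C330002G04Rik, on the minus strand and a second noncoding transcript on the plus strand, and the strand of the reads is not stated. With JNK2 present its change was 0.01 (adjusted p = 1): it was at 1.39, 1.16 and 0.709 FPKM in chow Jnk1 and at 1.03, 1.35 and 0.819 FPKM in chow control. The difference between the 2 changes was 2.66 (adjusted p = 6.87e-05).

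2510049J12Rik (chr6:115583547-115592576, minus strand) is the antisense partner of Mkrn2, and reads from overlapping opposite strands may not be separated. It stood at 2.87, 2.37 and 2.05 FPKM in Jnk1Jnk2, against 4.46, 3.96 and 4.35 FPKM in Jnk2. The groups did not overlap, and the log2 change was -0.62 ± 0.10 (adjusted p = 0.0184), while Mkrn2 had a change of -0.16. This call was the least firm of the 5. Its adjusted p was 0.384 in a fit of the 6 libraries alone, 0.224 in a fit of the chow libraries, 0.0516 with no filter on low loci, and 0.126 to 0.199 without Jnk1Jnk2 replicate 2 or 3 or Jnk2 replicate 1 or 3.

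**Figure D1:**
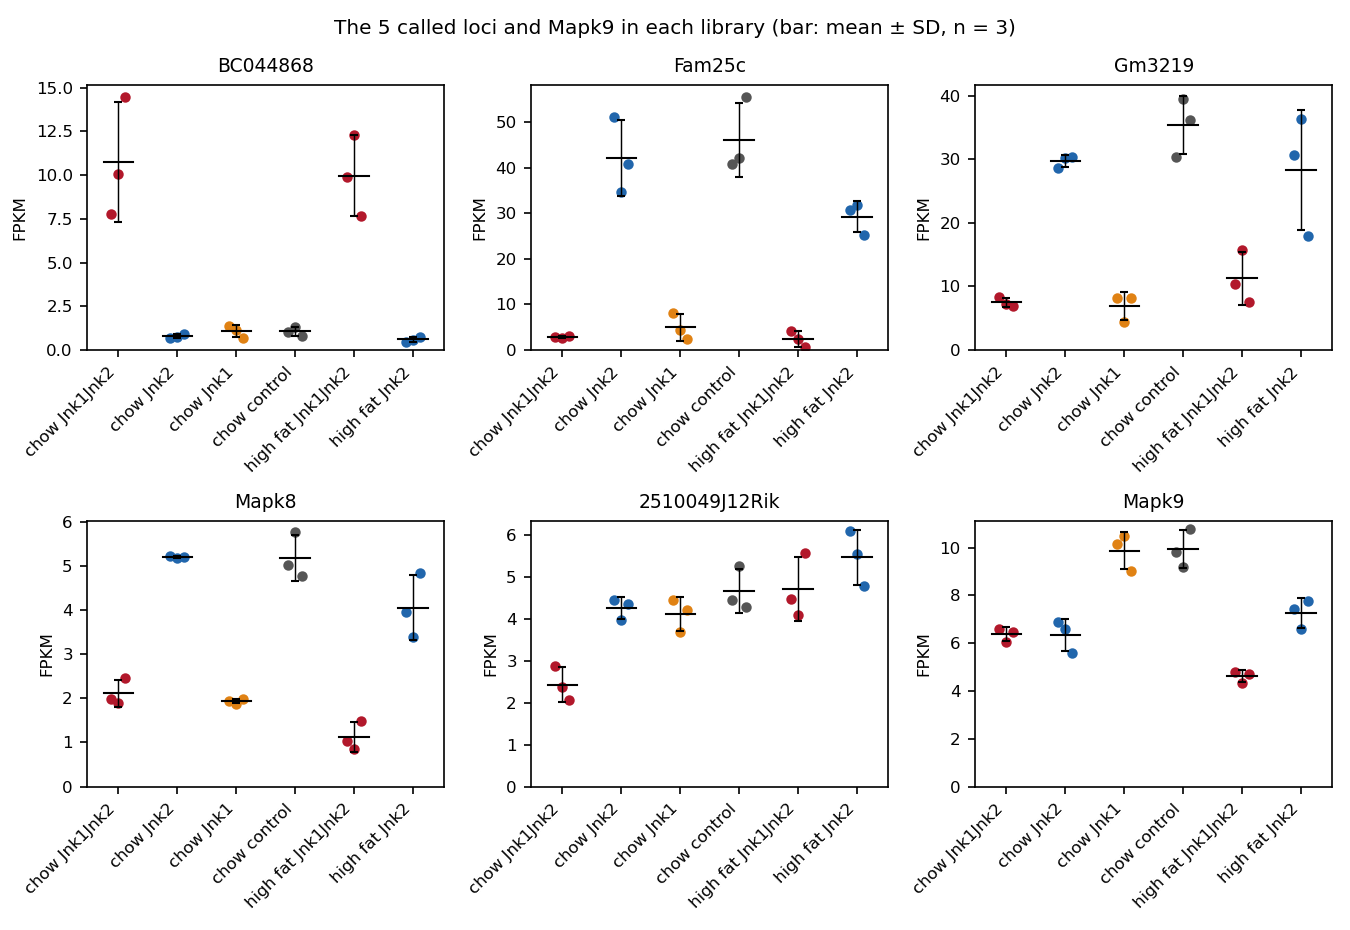
FPKM of the 5 loci with an adjusted p under 0.05 and of Mapk9 in each library of 6 groups, with each Jnk1Jnk2 group left of its Jnk2 group; points are libraries and bars are the mean ± SD (n = 3). BC044868 is at 7.76 FPKM or more in the chow Jnk1Jnk2 libraries and at 0.910 FPKM or less in the chow Jnk2 libraries, the other 4 called loci are lower in every chow Jnk1Jnk2 library, and Mapk9 overlaps on chow.

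Of the 4 loci that fell, 3 lie on chromosome 14: the floxed gene Mapk8 itself, Gm3219 and Fam25c. Gm3219 is 967.2 kb and Fam25c 974 kb from the Mapk8 start, and they fell with Mapk8 itself. Within 5 Mb of Mapk8, 3 of 57 tested loci passed (5.26%), against 0.0473% of all loci. These 3 include Mapk8, which was targeted by design, and Gm3219 and Fam25c lie beside each other. The median change of these 57 loci was -0.07, so the interval did not move as a whole. Within 10 Mb the count remained 3, of 76 loci. None of the 60 loci within 5 Mb of Mapk9, which is floxed in both groups, passed.

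The same 3 genes were low wherever the floxed Mapk8 allele was present. On chow with JNK2 present, Fam25c was at 8.19, 4.46 and 2.35 FPKM in Jnk1 and at 40.8, 42.2 and 55.5 FPKM in control, a log2 change of -3.08 (adjusted p = 1.40e-05). Gm3219 was at 8.20, 4.37 and 8.17 FPKM in chow Jnk1 and at 30.4, 39.5 and 36.2 FPKM in chow control, a change of -2.24 (adjusted p = 3.37e-05). These changes did not differ detectably from those in livers without JNK2 (adjusted p = 0.79 for Fam25c and 0.71 for Gm3219). On high fat diet Fam25c changed by -3.27 and Gm3219 by -1.26 between Jnk1Jnk2 and Jnk2. An effect of the Mapk8 allele or its linked chromosome segment and an effect of the kinase cannot be told apart here.

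**Figure D2:**
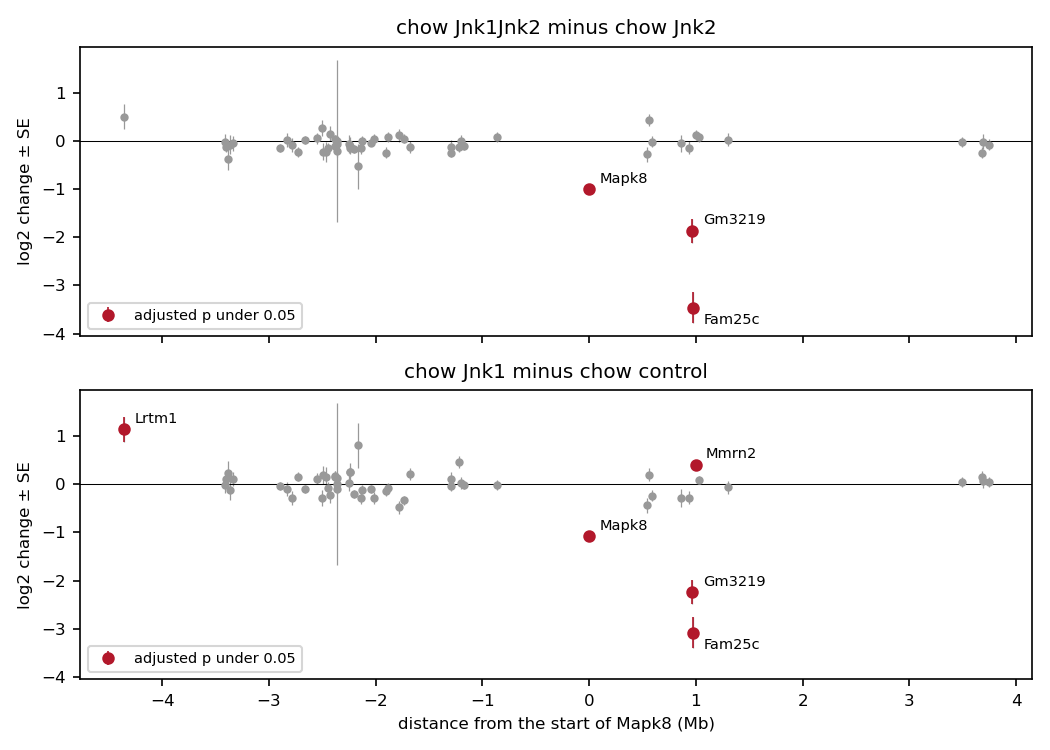
Log2 change ± SE of each tested locus within 5 Mb of Mapk8 against distance from the Mapk8 start in Mb, for chow Jnk1Jnk2 minus chow Jnk2 (upper panel) and chow Jnk1 minus chow control (lower panel). Red points have an adjusted p under 0.05; in the upper panel these are Mapk8 at -0.997, Gm3219 at -1.86 and Fam25c at -3.46, and in the lower panel Lrtm1 and Mmrn2 are red as well, at 1.14 and 0.41.

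The loci next in order of p were not called. Slc16a5, a monocarboxylate transporter family gene, came closest. It stood at 5.91, 5.80 and 6.85 FPKM in Jnk1Jnk2, against 10.5, 11.4 and 15.9 FPKM in Jnk2, with no overlap between the groups. Its log2 change was -0.90 ± 0.17 (adjusted p = 0.0567), and the adjusted p was 0.0317 and 0.0427 with pseudocounts of 0.1 and 0.5. With JNK2 present Slc16a5 rose: it was at 26.5, 28.6 and 17.9 FPKM in chow Jnk1 and at 12.0, 12.2 and 14.8 FPKM in chow control (log2 change 0.83, adjusted p = 0.0109). The 2 changes, negative without JNK2 and positive with it, differed by -1.74 (adjusted p = 0.00117).

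Erdr1, which the file places on chromosome Y, varied widely within groups. It stood at 13.3, 0.381 and 25.8 FPKM in Jnk1Jnk2, against 109, 111 and 64.7 FPKM in Jnk2, and its log2 change was -3.53 ± 0.73 (adjusted p = 0.158). Without Jnk1Jnk2 replicate 3 the adjusted p was 0.015. Ahr, the aryl hydrocarbon receptor, was at 7.74, 8.38 and 7.11 FPKM in Jnk1Jnk2, against 11.7, 10.8 and 11.1 FPKM in Jnk2 (log2 change -0.48 ± 0.12, adjusted p = 0.493). Its classical target Cyp1a2 lay the other way, at 315, 163 and 285 FPKM in Jnk1Jnk2, against 132, 138 and 133 FPKM in Jnk2. The Cyp1a2 change of 0.86 ± 0.32 did not pass (adjusted p = 1). Cyp3a13 and Sult1a1, enzymes of drug oxidation and sulfation, had changes of -0.50 (adjusted p = 0.432) and -0.70 (adjusted p = 0.651), and Slc41a2, a magnesium transporter, had -0.77 (adjusted p = 0.325).

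Across the 33 gene lists examined, 685 loci were tested and 1, Mapk8, passed. Of these loci, 18.1% had groups that did not overlap, against 13.0% of all tested loci, 47 with Jnk1Jnk2 above and 77 below. In the JNK pathway list, Mapk8 fell and the other 23 of 24 loci did not pass. Gadd45g, a stress-inducible activator of the upstream kinase MEKK4, was at 29.2, 25.2 and 9.82 FPKM in Jnk1Jnk2, against 41.8, 38.1 and 53.8 FPKM in Jnk2 (log2 change -1.14 ± 0.45, adjusted p = 1). Without overlap, 1 locus of this list lay above and 5 lay below, Mapk8 among them (3.82% and 9.21% of all loci). The one above was Map3k13, an upstream kinase, with a change of 0.23. None of the 15 AP-1 and immediate early genes passed. Jun, which encodes the best known JNK substrate, was at 2.80, 4.69 and 2.30 FPKM in Jnk1Jnk2, against 5.41, 4.86 and 6.56 FPKM in Jnk2. Its change was -0.66 ± 0.27 (95% interval -1.23 to -0.10, adjusted p = 1) with no overlap between the groups. Fosl2, another AP-1 subunit, had a change of 0.24.

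No gene of fatty acid oxidation passed. The 45 PPARα target and fatty acid oxidation loci had a median change of 0.07, against -0.03 over all loci, and in 11 of them all Jnk1Jnk2 libraries lay above all Jnk2 libraries, with 1 below, where all loci had 3.82% above and 9.21% below. The list median was 0.05 to 0.10 when each of the 6 libraries was left out. Ehhadh, an enzyme of peroxisomal oxidation, was at 900.5, 763 and 670.0 FPKM in Jnk1Jnk2, against 567, 608 and 473 FPKM in Jnk2 (0.50 ± 0.35). Mgll, the monoacylglycerol lipase gene, was at 77.5, 80.6 and 75.2 FPKM in Jnk1Jnk2, against 65.2, 63.8 and 55.3 FPKM in Jnk2 (0.34 ± 0.10, adjusted p = 1). In both genes every Jnk1Jnk2 library lay above every Jnk2 library. Fgf21, the fasting hormone of liver and the largest positive change in the list, was at 12.6, 12.2 and 6.36 FPKM in Jnk1Jnk2, against 6.57, 5.05 and 7.37 FPKM in Jnk2. Its groups overlapped, and its change of 0.60 ± 0.44 had a 95% interval of -0.32 to 1.52. Acot3, an acyl-CoA thioesterase gene, was the lowest at -0.58. Of the 24 lipid droplet and uptake genes none passed, and 4 lay above without overlap (3.82% of all loci), among them Plin2, a droplet coat protein gene, at 384, 348 and 345 FPKM in Jnk1Jnk2, against 308, 283 and 249 FPKM in Jnk2.

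The 38 interferon-stimulated loci had a median change of -0.20, and 11 of them lay below without overlap and none above, where all loci had 9.21% below and 3.82% above. None passed. Zbp1, a nucleic acid sensor gene, was at 3.50, 2.08 and 3.91 FPKM in Jnk1Jnk2, against 5.98, 4.42 and 5.23 FPKM in Jnk2 (-0.60 ± 0.18, adjusted p = 1). Isg15, a ubiquitin-like modifier gene, was at 5.32, 4.97 and 5.22 FPKM in Jnk1Jnk2, against 7.53, 7.60 and 7.19 FPKM in Jnk2 (-0.45 ± 0.32). The list median stayed between -0.22 and -0.14 when each of the 6 libraries was left out. Macrophage markers summed to 305, 324 and 307 FPKM in Jnk1Jnk2, against 375, 353 and 292 FPKM in Jnk2, and their part in this difference was not tested.

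The 38 acute phase and complement loci had a median of -0.22, with 8 below without overlap (9.21% of all loci), none above (3.82% of all loci) and none past the test. Hamp, the gene of the iron hormone hepcidin, was at 1596, 1488 and 1179 FPKM in Jnk1Jnk2, against 2272, 2483 and 2331 FPKM in Jnk2 (-0.74 ± 0.38, adjusted p = 1). Lcn2, the iron-binding lipocalin, was at 16.5, 30.3 and 29.3 FPKM in Jnk1Jnk2, against 193, 52.1 and 15.8 FPKM in Jnk2, with the highest value in Jnk2 replicate 1 and overlap between the groups. Lcn2 is itself one of the neutrophil markers, and the other 4 summed to 23.5, 12.8 and 20.8 FPKM in Jnk1Jnk2, against 144, 20.9 and 22.2 FPKM in Jnk2. Without Jnk2 replicate 1 the list median was -0.07, and without Jnk2 replicate 3 it was -0.34. The neutrophil part in these values was not tested. The metallothionein genes Mt1 and Mt2, which bind zinc and copper, had changes of -0.68 and -1.10 without passing.

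The remaining metabolic lists held no call. Medians were -0.17 for 24 cholesterol synthesis loci, -0.11 for 35 loci of amino acid and urea metabolism, -0.06 for 29 of glucose metabolism and insulin signalling, -0.06 for 51 of heme synthesis and xenobiotic metabolism, 0.04 for 25 of lipogenesis and -0.02 for 21 of bile acids. The 31 proteasome loci and 18 apoptosis loci had no locus whose groups were separate, against 13.0% of all tested loci. The 13 loci of other MAP kinases and the 10 of MHC class II and antigen presentation had none either. Ddit3, the gene of the stress factor CHOP, was at 5.84, 8.09 and 5.92 FPKM in Jnk1Jnk2, against 3.28, 3.72 and 4.19 FPKM in Jnk2 (0.68 ± 0.22, adjusted p = 1). Among the other cell types, the 6 cholangiocyte markers summed to 51.9, 51.7 and 50.4 FPKM in Jnk1Jnk2, against 39.0, 40.4 and 38.0015 FPKM in Jnk2. Without Spp1 the other 5 summed to 22.3, 23.4 and 24.999 FPKM in Jnk1Jnk2, against 21.8, 23.7 and 20.7 FPKM in Jnk2, with overlap. Spp1, the osteopontin gene and one of these markers, was at 29.6, 28.3 and 25.4 FPKM in Jnk1Jnk2, against 17.2, 16.7 and 17.3 FPKM in Jnk2 (0.67 ± 0.20, adjusted p = 1).

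**Figure D3:**
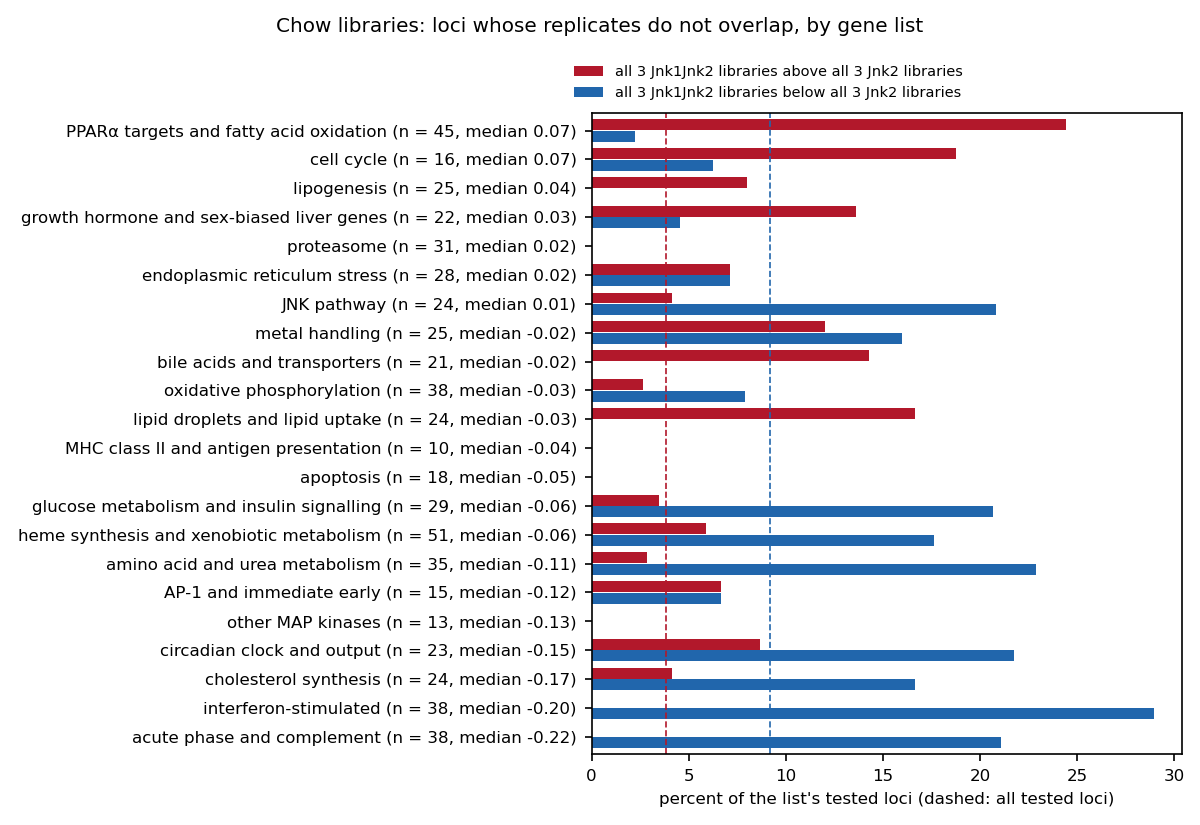
Percent of the tested loci of 22 gene lists whose 3 chow Jnk1Jnk2 libraries all lay above (red) or all lay below (blue) the 3 chow Jnk2 libraries; labels give the number of loci and their median log2 change. Dashed lines mark the shares over all tested loci, 3.82% above and 9.21% below, and the PPARα list has 11 of 45 loci above while the interferon list has 11 of 38 below.

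The same loss of JNK1 was then set beside its effect in livers with JNK2 (chow Jnk1 minus chow control), which uses other libraries, some of them with muscle or pancreas RNA as given above. With JNK2, 232 loci passed (2.20%), 104 higher in Jnk1 (0.985%) and 128 lower (1.21%), against 5 without JNK2. That count was 56 in a fit of its 2 groups alone, 149 and 137 without Jnk1 replicates 1 and 2, and 99, 103 and 96 without control replicates 1, 2 and 3. At 195 of those 232 loci (84.1%) the change without JNK2 had the opposite sign, compared with 61.1% of all loci. Loci that rose with JNK2 present had a median change of 0.63 there and of -0.19 without JNK2, and those that fell had -0.67 there and 0.15 without JNK2. Over all 10561 loci, which are not independent, the 2 changes had a Spearman correlation of -0.34 and a Pearson correlation of -0.13. The Spearman value ranged from -0.35 to -0.22 and the opposite count from 182 to 199 when each of the 6 libraries was left out. The 3 loci called in both (60% of the 5 and 1.29% of the 232) are Mapk8, Fam25c and Gm3219.

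The difference between both changes was tested directly, and 162 loci passed (1.53%), 74 with a positive difference (0.701%) and 88 with a negative one (0.833%). Loci chosen for a large difference tend to have opposite signs, so the 159 of 162 with opposite signs describe the choice; in 153 the change was larger with JNK2 present. The median size of the change was 0.29 log2 units without JNK2 and 0.67 with it, and 127 of the 162 also passed with JNK2, while only BC044868 passed without it. The count depended on single libraries: it was 134 without Jnk2 replicate 1, 138 without Jnk1 replicate 1 and 108 without control replicate 3, 72 and 81 without Jnk1Jnk2 replicates 1 and 2, 106 and 58 without Jnk2 replicates 2 and 3, and 90 and 94 without control replicates 1 and 2. Scaling moved its split, which was 123 positive and 105 negative with size factors.

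**Figure D4:**
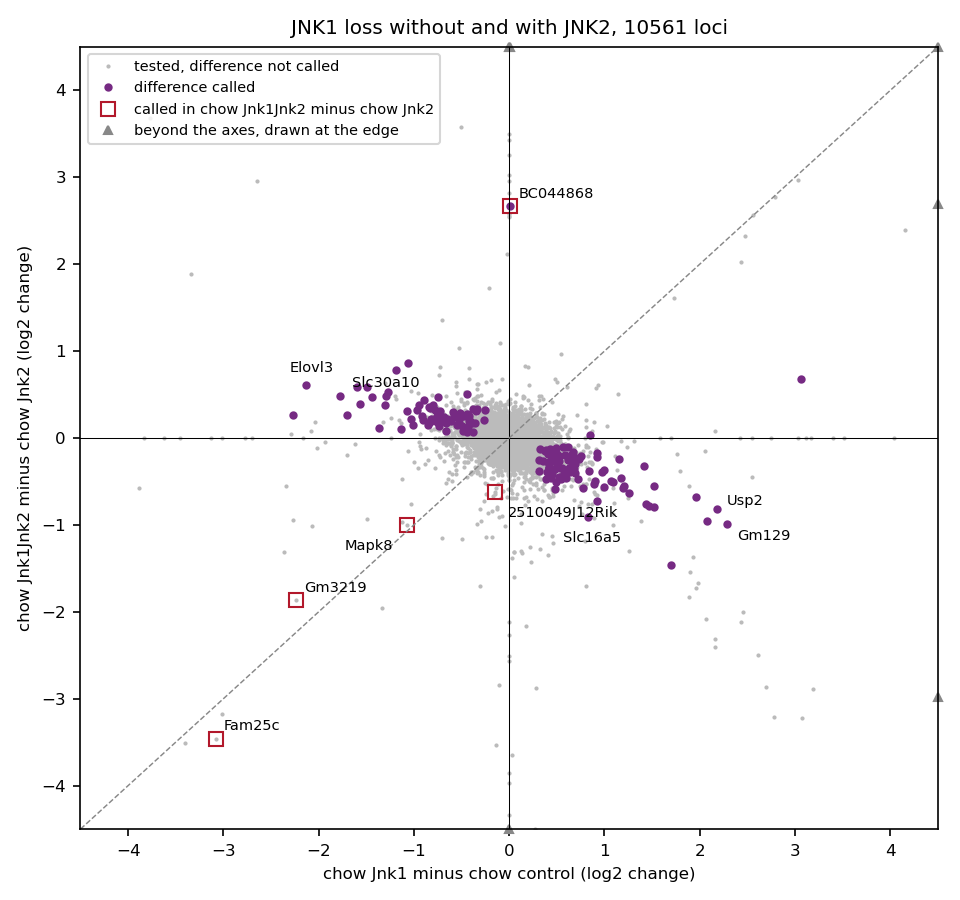
Log2 change of each tested locus from JNK1 loss without JNK2 (vertical, chow Jnk1Jnk2 minus chow Jnk2) against that with JNK2 (horizontal, chow Jnk1 minus chow control), with equal changes on the dashed line. Purple points are the 162 loci whose difference passed, a choice that favours opposite signs (159 of them); squares are the 5 called loci, and 6 loci beyond 4.5 log2 units are drawn at the edge.

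The genes described next were taken by their small p-values in that difference. Slc30a10, a manganese exporter gene, was at 5.14, 5.03 and 4.38 FPKM in Jnk1Jnk2, against 3.64, 3.59 and 3.12 FPKM in Jnk2. With JNK2 it was at 1.77, 1.45 and 1.88 FPKM in Jnk1, against 7.74, 6.36 and 6.87 FPKM in control. Its change was thus 0.39 without JNK2 (adjusted p = 1) and -1.57 with it, a difference of 1.96 (adjusted p = 6.87e-06). Elovl3, an elongase of very long chain fatty acids, followed the same pattern. It was at 93.3, 109 and 72.4 FPKM in Jnk1Jnk2, against 61.8, 54.4 and 60.1 FPKM in Jnk2. With JNK2 it was at 20.1, 27.0 and 22.8 FPKM in Jnk1, against 116, 95.1 and 104 FPKM in control, and the difference of the changes was 2.75 (adjusted p = 2.98e-05). Abcb11, which encodes the canalicular bile salt pump, had a change of 0.26 without JNK2 and -0.91 with it, a difference of 1.17 (adjusted p = 0.000389). In each of these 3 genes the lowest group was chow Jnk1, and the Jnk1Jnk2 libraries lay above the Jnk2 libraries.

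The heme synthesis and xenobiotic metabolism list held 5 calls in the difference among 51 loci, 3 negative (Alas1, Por and Cyp3a13) and 2 positive (Cyp1a2 and Cyp2c70), with a median difference of 0.04. Over all loci 1.53% passed in the difference, 0.833% negative and 0.701% positive. Alas1, which encodes the first enzyme of heme synthesis, was at 182, 163 and 165 FPKM in Jnk1Jnk2, against 204, 305 and 248 FPKM in Jnk2. With JNK2 it was at 334, 376 and 285 FPKM in Jnk1, against 86.4, 160.2 and 109 FPKM in control. Its change was -0.55 without JNK2 (adjusted p = 1) and 1.52 with it, a difference of -2.07 (adjusted p = 0.00221). Por, the electron donor of microsomal P450 enzymes, had -0.22 without JNK2 and 0.92 with it (difference -1.14, adjusted p = 0.0117), and Cyp3a13 had -0.50 and 0.49 (difference -0.99, adjusted p = 0.00557). The P450 gene Cyp1a2 had 0.86 without JNK2 and -1.06 with it (difference 1.92, adjusted p = 0.0357), and the P450 gene Cyp2c70 had 0.27 and -2.27 (difference 2.54, adjusted p = 0.0407).

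The circadian clock list differed most between both settings among the lists examined, by count of calls in the difference: 9 of 23 loci passed, 2 positive and 7 negative, against 1.53% of all loci. The clock runs on CLOCK and ARNTL (BMAL1), which activate Per and Cry repressor genes and the output factors DBP and TEF. Without JNK2 no clock locus passed, 2 lay above and 5 below without overlap (3.82% and 9.21% of all loci), and the median change was -0.15. That median was -0.30 without Jnk2 replicate 1, -0.25 and -0.22 without Jnk1Jnk2 replicates 2 and 3, and -0.10 without Jnk1Jnk2 replicate 1. With JNK2 present 8 of the 23 passed as higher and 2 as lower (0.985% and 1.21% of all loci), 13 did not pass, and the median was 0.57. Promoters of these genes are shown because CLOCK with ARNTL binds the E-box CACGTG, which reads the same on both strands, and DBP and TEF bind the D-box TTATGTAA, searched also as TTACATAA. Capitals mark these letters in the 250 bases before the RefSeq transcription start (GRCm38.p6, the assembly of mm10). Ciart is the RefSeq symbol of the locus named Gm129 in the file.
Ciart, chr3:95882229-95882478, minus strand: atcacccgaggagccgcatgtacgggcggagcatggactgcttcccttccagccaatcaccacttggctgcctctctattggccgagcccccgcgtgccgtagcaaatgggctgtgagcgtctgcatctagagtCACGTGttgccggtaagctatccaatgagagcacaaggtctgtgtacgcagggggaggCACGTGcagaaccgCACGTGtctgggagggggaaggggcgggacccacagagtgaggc
Per3, chr4:151044666-151044915, minus strand: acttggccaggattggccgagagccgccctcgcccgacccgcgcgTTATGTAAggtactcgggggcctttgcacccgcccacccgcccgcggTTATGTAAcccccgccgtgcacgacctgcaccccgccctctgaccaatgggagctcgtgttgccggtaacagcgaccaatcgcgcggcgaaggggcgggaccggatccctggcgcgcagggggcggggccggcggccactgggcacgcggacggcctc
Tef, chr15:81802423-81802672, plus strand: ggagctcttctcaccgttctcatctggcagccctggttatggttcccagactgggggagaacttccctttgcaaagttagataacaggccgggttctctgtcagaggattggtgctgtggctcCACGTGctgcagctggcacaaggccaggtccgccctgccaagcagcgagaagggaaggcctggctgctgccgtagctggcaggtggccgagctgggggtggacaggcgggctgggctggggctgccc
Of the 9 loci, 7 were in the promoter table, and an E-box was found in 2 of these (Ciart with 3, and Tef) and a D-box in 1 (Per3 with 2). Another Tef window, not printed, also held an E-box. Over 32851 promoters of this length, 6.02% held the E-box and 0.819% the D-box. These shares count single windows, while a gene was counted if any of its windows held a match, so the 2 measures are unlike. Per2 and Wee1 were not matched. A match is a description of the letters and not of binding.

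Gm129 (Ciart), a repressor of CLOCK and ARNTL, was at 5.72, 5.60 and 7.65 FPKM in Jnk1Jnk2, against 9.29, 13.9 and 18.5 FPKM in Jnk2. With JNK2 it was at 20.3, 19.8 and 23.3 FPKM in Jnk1, against 5.55, 2.39 and 3.21 FPKM in control. Every Jnk1Jnk2 library lay below every Jnk2 library, but the change of -0.99 ± 0.35 did not pass (adjusted p = 1), while the difference of -3.27 did (adjusted p = 0.00263). Usp2, a clock-controlled deubiquitinase gene, was at 4.08, 7.37 and 11.4 FPKM in Jnk1Jnk2, against 8.66, 14.7 and 18.0 FPKM in Jnk2, with overlap. Its change was -0.82 without JNK2, which did not pass, and 2.18 with JNK2, a difference of -2.99 (adjusted p = 0.00557). Per3, a period gene, was at 1.36, 2.60 and 2.90 FPKM in Jnk1Jnk2, against 3.58, 4.82 and 5.00 FPKM in Jnk2 (difference -2.19, adjusted p = 0.00701). Its 2 groups did not overlap, but its change without JNK2 did not pass.

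The output factors followed. Dbp was at 9.63, 12.4 and 23.8 FPKM in Jnk1Jnk2, against 23.5, 26.6 and 20.5 FPKM in Jnk2, with overlap. Its change was -0.68 without JNK2, which did not pass, and 1.96 with JNK2, a difference of -2.64 (adjusted p = 0.00716). Tef had a difference of -1.36 (adjusted p = 0.00557). The activator genes lay opposite: Arntl was at 2.45, 2.30 and 1.57 FPKM in Jnk1Jnk2, against 2.16, 0.924 and 0.824 FPKM in Jnk2, with overlap. Its change was 0.47 without JNK2, which did not pass, and -1.44 with JNK2, a difference of 1.91 (adjusted p = 0.0173). The Arntl call was lost without Jnk1Jnk2 replicate 1 or 2, Jnk2 replicate 3 or control replicate 1 (adjusted p 0.0504 to 0.0640). Clock had a difference of 1.18 (adjusted p = 0.0301). Within Jnk1Jnk2, replicate 3 had the highest Usp2, Per3, Dbp and Gm129 and the lowest Arntl. Collection times are not given in the sources used here, so time of day and genotype cannot be told apart.

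**Figure D5:**
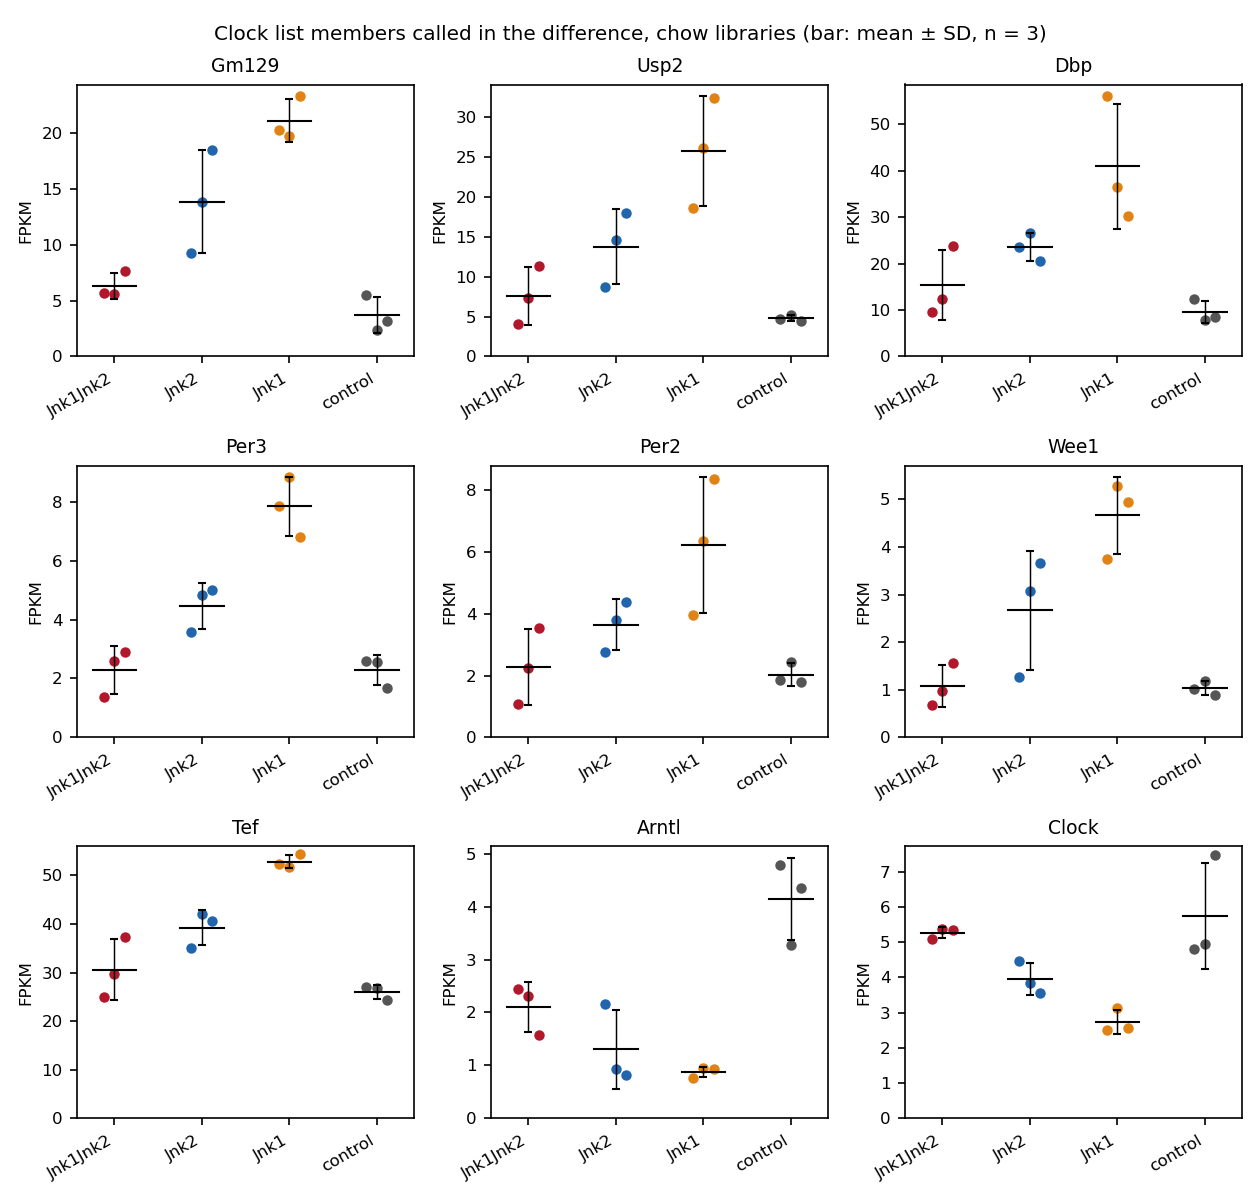
FPKM of the 9 clock list loci called in the difference in each library of chow Jnk1Jnk2, Jnk2, Jnk1 and control; points are libraries and bars are the mean ± SD (n = 3). For Gm129 the Jnk1Jnk2 libraries sit between 5.60 and 7.65 FPKM and the Jnk1 libraries between 19.8 and 23.3 FPKM, while Arntl is at 0.944 FPKM or less in the Jnk1 libraries.

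On high fat diet the same genotypes differed at far more loci. Between high fat Jnk1Jnk2 and high fat Jnk2, 5121 loci passed (48.5%), 1619 higher (15.3%) and 3502 lower (33.2%), and 3048 loci passed the test of the difference from chow (28.9%), 1066 positive (10.1%) and 1982 negative (18.8%). In the high fat Jnk1Jnk2 libraries, values against the mean fell with transcript length (Spearman -0.66 to -0.60, against -0.25 to 0.42 in the others). With that trend removed, 2422 and 823 loci passed, and with size factors the split of the first count was 2316 higher and 2593 lower and that of the second 1464 and 1450. The part of RNA quality or library preparation in these counts was not tested. At the 5121 loci the chow change had the same sign at 2604 and the opposite sign at 2517.

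Of the 5 loci called on chow, 4 were also called on high fat diet, all but 2510049J12Rik, while 48.5% of all tested loci were called on that diet. BC044868 was at 9.92, 12.3 and 7.66 FPKM in high fat Jnk1Jnk2, against 0.478, 0.594 and 0.756 FPKM in high fat Jnk2 (2.75, adjusted p = 3.51e-07), and the difference from its chow change was 0.08 (adjusted p = 0.86). Mapk8 was at 1.03, 0.845 and 1.49 FPKM in high fat Jnk1Jnk2, against 3.94, 3.38 and 4.84 FPKM in high fat Jnk2 (-1.25, adjusted p = 1.63e-06). 2510049J12Rik had -0.18 there (adjusted p = 0.154), and its difference between diets was 0.44 (adjusted p = 0.0327). Mapk9 differed between diets: it was at 4.81, 4.33 and 4.73 FPKM in high fat Jnk1Jnk2, against 7.44, 6.58 and 7.79 FPKM in high fat Jnk2, while the chow groups overlapped (difference -0.56, adjusted p = 0.00413).

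Zbp1 and Hamp, which did not pass on chow, were higher in Jnk1Jnk2 than in Jnk2 on high fat diet. Zbp1 was at 16.5, 14.9 and 15.9 FPKM in high fat Jnk1Jnk2, against 9.49, 9.09 and 6.85 FPKM in high fat Jnk2, a log2 change of 0.83, and its difference from the chow change was 1.43 (adjusted p = 0.00195). Hamp had a change of 1.68 on high fat diet and a difference of 2.43 (adjusted p = 0.00489). Jun was lower in high fat Jnk1Jnk2, at 3.25, 3.62 and 3.38 FPKM, against 8.22, 8.56 and 9.40 FPKM in high fat Jnk2 (-1.14, adjusted p = 0.00214). The Jun difference from chow of -0.48 did not pass (adjusted p = 0.358). High fat changes of single genes, here and above, are given without the length trend removed.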

How the data were processed

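Liver RNA of 24 libraries was measured by RNA-seq. RNeasy extraction was used and libraries followed standard Illumina protocols, per the labels' protocols. Per the submitters' processing notes, TopHat, Cufflinks and Cuffdiff were used on mm10, and their versions are not given in the sources used here. For each library and Cufflinks locus the authors deposited FPKM. Samples were grouped by their titles, and 1 locus without a name (at most 0.00954% of a library) was left out.

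Loci averaging 1 FPKM or more entered limma-trend (limma 3.58.1, R 4.3.3), with log2(FPKM + 1) as response and 8 group means over the 24 libraries (16 residual degrees of freedom, median prior 3.43). Fold changes are on that scale, which understates changes of low loci. Calls were made within each contrast at 0.05 after Benjamini-Hochberg adjustment. No count test was run because FPKM are not counts. FPKM steps give relative depth alone, so no counting intervals are given. Coordinates are mm10, counted from 1, and sequences are from RefSeq GRCm38.p6. The procedure was checked on simulated data.

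The comparison, gene lists and alternatives were chosen with earlier results of these data known. Genes named were the targeted genes, called loci, loci among the 15 smallest p-values, not all of which are printed, the largest rise and fall of described lists, and up to 5 loci by p in each test of a difference; other genes given as values were chosen after their values were seen. Alternatives were other pseudocounts, filters, scalings, weights, sample sets, a replicate block and leaving out each library.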

Additional observations from a re-analysis of the deposited data

Results flagged for a closer look

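These results were picked out because the change itself differed between settings by a limma test with Benjamini-Hochberg adjustment. JNK1 loss without JNK2 differed from JNK1 loss with JNK2 at 162 loci on chow, and JNK1 loss without JNK2 differed between high fat and chow at 3048 loci.

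Between livers without and with JNK2, the log2 difference was positive for Elovl3 (2.75), BC044868 (2.66), Slc30a10 (1.96), Arntl (1.91) and Abcb11 (1.17). It was negative for the clock genes Gm129 (-3.27), Usp2 (-2.99), Dbp (-2.64), Per3 (-2.19) and Tef (-1.36), and for the metabolic genes Alas1 (-2.07), Slc16a5 (-1.74), Por (-1.14) and Cyp3a13 (-0.99). Adjusted p ranged from 6.87e-06 for Slc30a10 to 0.0173 for Arntl.

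Between diets, the change from added JNK1 loss was lower on high fat diet for Slc30a10 (-0.96, adjusted p = 0.00212), Elovl3 (-0.87, adjusted p = 0.0267), Abcb11 (-0.72, adjusted p = 0.00345) and Mapk9 (-0.56, adjusted p = 0.00413). It was higher for AK050336 (1.67, adjusted p = 0.0016), Gm129 (1.64, adjusted p = 0.022), Alas1 (1.03, adjusted p = 0.0196) and 2510049J12Rik (0.44, adjusted p = 0.0327). The length trend of the high fat Jnk1Jnk2 libraries was not removed for these values.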

How the results depend on the processing

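The 5 calls of chow Jnk1Jnk2 against chow Jnk2 stayed between 4 and 6 under the alternatives run, and between 4 and 5 when each of the 6 libraries was left out, except that 2 passed at a mean of at least 5 FPKM, where 3 of the loci were too low to be tested and no list member passed (0). With the length trend removed BC044868, which has no transcript length, was not tested. With a replicate block 5 passed. Replicate numbers did not pair the samples (correlations of same-numbered deviations 0.00682, 0.0328 and 0.121, and replicate 3 alone correlated best with its own number). With the block 222 loci passed for JNK1 loss with JNK2, 152 for the difference, 5044 for high fat and 2984 for the diet difference. JNK1 loss with JNK2 gave 56 calls in a fit of its 2 groups and 359 with the length trend removed (96 to 229 leaving out a library). The difference gave 104 without a filter, 423 with array weights and 311 with the length trend removed (58 to 176), with splits of 138 positive and 95 negative under quantile normalization and 176 and 135 with the trend removed. High fat gave 3074 calls in its 2 groups and 2422 with the trend removed (4017 to 5069), and the diet difference 823 with the trend removed (1973 to 3251, with 2031 without chow Jnk2 replicate 3 and 1973 without high fat Jnk1Jnk2 replicate 2). The count near Mapk8 was 3 whichever of the 6 libraries was left out. Causes of these moves were not tested. The Mapk9 change, near 0, ranged from -0.0703 (without Jnk2 replicate 3) to 0.0584 (without Jnk2 replicate 1), and was -0.0172 and -0.00288 without Jnk1Jnk2 replicates 1 and 3. Of the named genes' chow changes, 432 values kept direction and side of the threshold, 7 lost it and 5 gained it. Relative depth limits low loci most.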

Other observations

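Hist1h2ba, a testis-type histone gene, was at 14.5, 13.3 and 20.0 FPKM in Jnk1Jnk2, against 5.67, 13.8 and 10.6 FPKM in Jnk2, and at 4.84, 9.26 and 12.5 FPKM in chow Jnk1, against 0, 0.387 and 0 FPKM in chow control. Its log2 change was 0.68 without JNK2 and 3.06 with it, a difference of -2.39 (adjusted p = 0.00701), and it was detected in every library of the 3 chow groups that carry a floxed allele. Pttg1, which encodes securin, was at 1.53, 2.21 and 1.81 FPKM in Jnk1Jnk2, against 1.31, 0.930 and 1.32 FPKM in Jnk2, and at 34.6, 22.8 and 29.4 FPKM in chow Jnk1, against 30.9, 32.3 and 26.1 FPKM in chow control. The low Pttg1 values were thus shared by the groups with floxed Mapk9. Pttg1 (chr11:43420248-43426248) lies on the same chromosome as Mapk9, outside the 5 Mb window used above. For Pttg1, linkage and kinase loss cannot be told apart. Hist1h2ba lies on chromosome 13, which holds neither Mapk8 nor Mapk9.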
